A study of Homo sapiens with 3 samples.

Results

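The p300/CBP peaks described here became narrower when Fra-1 was depleted. They were chosen from the peak lists of MDA-MB-231, a cell line derived from a triple negative breast cancer (TNBC) of basal type. On chromosomes 1 to 22 and X, 1 peak of control cells (siCTL) and 1 peak of Fra-1-depleted cells (siFra-1), each at least 250 bp wide, were taken as a pair when they shared at least 1 bp and neither overlapped any other peak of the other list. There were 2139 such pairs, and the 509 in which the siFra-1 peak was the narrower one were selected on that width, so their widths are a description and not a test. The siCTL cells had received 4.5 nM of a control siRNA, and the siFra-1 cells 4.5 nM of a pool of siRNAs against Fra-1. Both were kept for 72 h before fixation for 7 min and immunoprecipitation with an antibody that recognises p300/CBP. Of the 3 samples of the series, 1 is input DNA and was not analysed here. Replicate immunoprecipitations were pooled into 1 library for each condition. Thus, replicate error is unknown for every difference between siCTL and siFra-1, and every interval given is a 95% interval that covers counting error over peaks only. The lists hold positions on hg19 without heights or read numbers, so the depth is unknown, and a lower occupancy and a weaker or differently scaled siFra-1 library cannot be told apart from peak width. The amount of Fra-1 is not measured by these files.

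p300 and CBP are related lysine acetyltransferases that do not read DNA sequence themselves. They are brought to enhancers and promoters by transcription factors, acetylate histones there and are widely used to map candidate enhancers. Fra-1 is the product of FOSL1 and one of the Fos proteins, which need a Jun partner to bind DNA as an AP-1 dimer. Such dimers bind the AP-1/TRE motif TGAGTCA, which reads as TGACTCA on the other strand. TEAD and RUNX factors, which act downstream of the Hippo pathway and in epithelial and other lineages, respectively, often share enhancers with AP-1.

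The sequences that follow are shown because they are what p300/CBP peaks kept, or lost, at the largest falls in width. Each one is the part of the siCTL peak that the siFra-1 peak also covered, read from the plus strand of GRCh37 (the assembly of hg19), up to 300 bp around the AP-1 motif. Capitals mark AP-1 motifs.
chr10:11835952-11836201: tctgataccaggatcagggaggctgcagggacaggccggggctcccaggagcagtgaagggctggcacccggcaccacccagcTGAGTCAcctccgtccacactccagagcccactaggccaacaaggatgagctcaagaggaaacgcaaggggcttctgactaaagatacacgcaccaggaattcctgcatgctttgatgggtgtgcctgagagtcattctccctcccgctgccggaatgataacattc
chr10:78923752-78924001: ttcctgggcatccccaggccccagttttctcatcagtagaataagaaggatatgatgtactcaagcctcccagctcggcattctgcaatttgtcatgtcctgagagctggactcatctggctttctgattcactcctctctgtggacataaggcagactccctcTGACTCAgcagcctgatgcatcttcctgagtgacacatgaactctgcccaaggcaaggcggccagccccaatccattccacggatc
chr20:33893499-33893798: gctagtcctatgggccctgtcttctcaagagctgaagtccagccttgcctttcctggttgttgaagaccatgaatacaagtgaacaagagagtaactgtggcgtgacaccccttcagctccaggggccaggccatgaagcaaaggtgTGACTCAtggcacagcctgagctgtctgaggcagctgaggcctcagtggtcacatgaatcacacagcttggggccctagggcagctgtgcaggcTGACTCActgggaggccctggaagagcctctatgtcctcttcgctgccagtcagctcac
chr1:234793102-234793351: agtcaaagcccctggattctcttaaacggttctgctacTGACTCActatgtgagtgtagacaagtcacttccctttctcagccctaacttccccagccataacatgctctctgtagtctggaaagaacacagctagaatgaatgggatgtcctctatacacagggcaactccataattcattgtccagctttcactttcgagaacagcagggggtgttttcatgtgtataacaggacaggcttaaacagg
The first came from a siCTL peak of 750 bp that was 250 bp wide in siFra-1, and its motif began at base 84 of the kept part. The second came from a peak that went from 700 to 250 bp. The third lay in a peak that went from 1250 to 850 bp and held 2 motifs, and the fourth in one that went from 600 to 250 bp. In contrast, the largest falls without an AP-1 motif in the shared part had the following sequences there, in which neither AP-1 nor the TEAD and RUNX words searched here occur. The second is the central 300 bp of a longer shared part.
chr3:11641952-11642151: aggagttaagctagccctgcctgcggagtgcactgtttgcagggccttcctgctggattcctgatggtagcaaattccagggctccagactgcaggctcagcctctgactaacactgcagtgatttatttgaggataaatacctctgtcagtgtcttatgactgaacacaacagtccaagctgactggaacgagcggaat
chr7:130598052-130598351: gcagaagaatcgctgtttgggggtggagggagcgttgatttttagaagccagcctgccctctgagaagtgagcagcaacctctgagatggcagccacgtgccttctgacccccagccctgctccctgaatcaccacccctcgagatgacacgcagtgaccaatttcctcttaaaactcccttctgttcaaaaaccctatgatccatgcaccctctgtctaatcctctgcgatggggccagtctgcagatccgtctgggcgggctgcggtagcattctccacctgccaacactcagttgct
Both of these pairs had an AP-1 motif in the part of the siCTL peak that was absent from the siFra-1 list. The 100 bp around it are given for each in the same order.
chr3:11642259-11642358: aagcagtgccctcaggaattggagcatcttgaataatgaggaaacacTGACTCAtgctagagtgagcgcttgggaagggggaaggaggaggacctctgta
chr7:130597604-130597703: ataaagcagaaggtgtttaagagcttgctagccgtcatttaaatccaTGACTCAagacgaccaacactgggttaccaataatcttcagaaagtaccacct

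The 509 narrower pairs made up 23.8% of the 2139 pairs (Wilson interval 22% to 25.6%), while 1286 pairs (60.1%) were wider in siFra-1 and 344 (16.1%) had equal widths. Narrowing was thus the less frequent direction among sites called as wide peaks in both conditions. The rule used this contrast, so nothing further is read from the 23.8%. They were also 14.0% of the 3644 siCTL peaks of at least 250 bp. Of these peaks, 547 were overlapped by no siFra-1 peak and 471 by a single siFra-1 peak under 250 bp, which the rule leaves out. The remaining 487 that were not paired belonged to overlaps of several peaks.

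Among the narrower pairs, siCTL widths ran from 300 to 1250 bp with a median of 450 bp, and siFra-1 widths from 250 to 1100 bp with a median of 350 bp. The lists were made in bins of 50 bp, so a change of 50 bp is the smallest that can be seen. The fall was 50 bp in 224 pairs, 100 bp in 137, 150 bp in 64 and 200 bp or more in 84, with 500 bp the largest. Most narrowing was therefore by 1 or 2 bins, and 20 pairs had a siFra-1 peak of at most 0.5 times the siCTL width. The pairs just inside the rule are the 224 that fell by 50 bp, and those just outside are the 344 of equal width. At the width limit, 106 narrower pairs had a siFra-1 peak of exactly 250 bp, whereas 142 pairs were left out because it measured 200 bp. The shared part had a median of 350 bp in the narrower, equal and wider pairs alike, which makes sequence comparisons centred on it comparable between them.

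**Figure D1:**
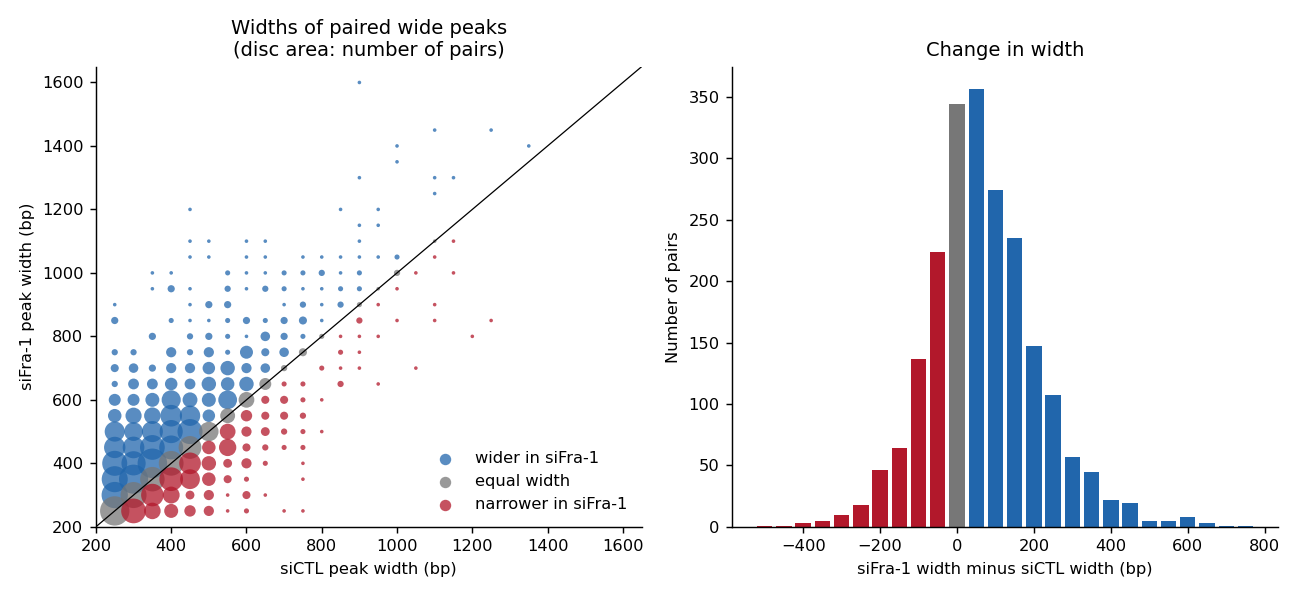
Left, siCTL peak width (bp, horizontal) against siFra-1 peak width (bp, vertical) for the 2139 pairs, with disc area giving the number of pairs and the line marking equal widths. Right, number of pairs at each change in width (bp), with the 509 narrower pairs in red, 344 of equal width in grey and 1286 wider pairs in blue.

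In 276 narrower pairs (54.2%) 1 edge moved inwards and the other stayed in the same bin. Both edges moved inwards in 129 (25.3%), and in 104 (20.4%) 1 edge moved inwards and the other outwards. The siFra-1 peak thus lay wholly within the siCTL peak in 405 pairs (79.6%). The edge at the lower coordinate moved in more in 219 pairs, the edge at the higher coordinate in 237, and both by as much in 53. The narrower share depends on width by the rule itself, since narrow siCTL peaks had little room to shrink. It rose from 17% of 631 pairs with a siCTL peak of 300 to 350 bp to 37.6% of 412 pairs at 500 to 600 bp and 42.2% of 64 pairs at 850 bp and over. By siFra-1 width it went the other way, from 61.6% of 172 pairs at 250 bp to 12.9% of 580 at 500 to 600 bp and 9.85% of 132 at 850 bp and over.

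The study addressed whether Fra-1 affects p300/CBP recruitment, so AP-1 motifs were counted in the 200 bp centred on the shared part. This sequence was not used to choose the pairs. The motif was present in 236 of 509 narrower pairs (46.4%, Wilson interval 42.1% to 50.7%), in 125 of 344 pairs of equal width (36.3%, 31.4% to 41.5%) and in 413 of 1286 wider pairs (32.1%, 29.6% to 34.7%). Narrower pairs therefore held it more often than both. The difference was 14.3 percentage points against wider pairs (Newcombe interval 9.23 to 19.3) and 10.0 against pairs of equal width (3.28 to 16.6). In windows moved by 2 kb from the narrower pairs the motif was found in 3.14% (2.24% to 4.40%), and over all siCTL peaks in 6.15%. With wider pairs weighted to the siCTL widths of the narrower ones, the difference against them was 14.7 percentage points (9.38 to 20.1).

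Within the narrower pairs, the AP-1 share was lowest at the smallest fall. It was 51.6% in the 285 pairs that lost at least 100 bp and 39.7% in the 224 that lost 50 bp. The difference was 11.8 percentage points (3.12 to 20.3). These shares were not weighted to siCTL width, which had a median of 400 bp at falls of 50 bp. The median was 500 bp at falls of 100 or 150 bp and 600 bp at 200 bp or more. The AP-1 share rose no further with the fall. It was 51.7% of the 201 pairs that lost 100 or 150 bp and 51.2% of the 84 that lost 200 bp or more. Among wider pairs it was 32.8% for a gain of 50 bp, 35% for 100 or 150 bp and 31.5% for 200 to 300 bp, with overlapping intervals, and 20 of the 109 pairs that gained 350 bp or more held the motif (18.3%, Wilson interval 12.2% to 26.6%). Of the 471 pairs with a wide siCTL peak and a siFra-1 peak under 250 bp, 29.5% (25.6% to 33.8%) held the motif. This was less than among the narrower pairs. It was also no more than the 36.3% of pairs of equal width (31.4% to 41.5%) and the 32.1% of wider pairs (29.6% to 34.7%). The higher AP-1 share of the narrower pairs thus did not extend to siCTL peaks that fell below 250 bp.

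**Figure D2:**
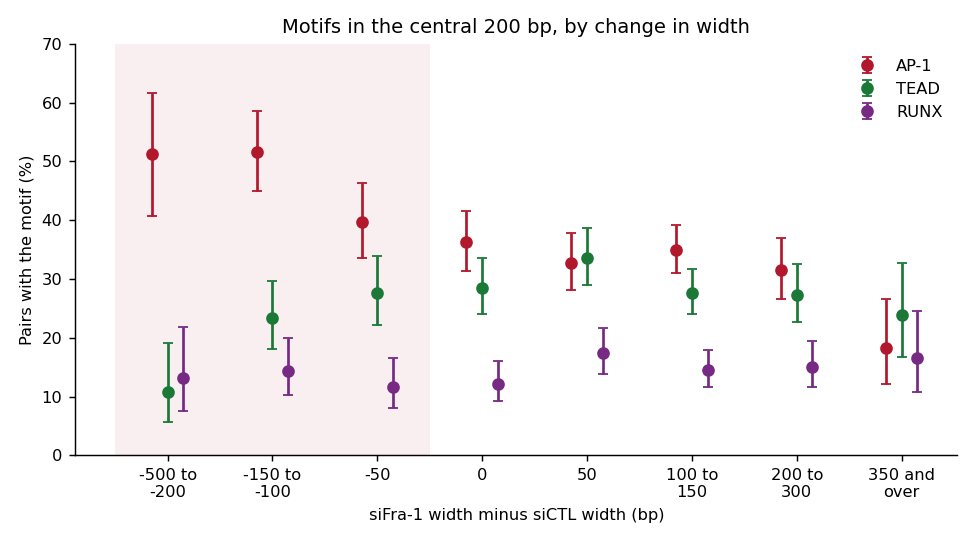
Share of pairs (%, vertical) with an AP-1, TEAD or RUNX motif in the central 200 bp of the shared part, by change in width (bp, horizontal), with 95% Wilson intervals. The shaded classes are the narrower pairs. AP-1 was highest there, at 51.2% and 51.7% in the classes that fell by 100 bp or more, and lowest, at 18.3%, in the pairs that widened most, whereas TEAD was lowest, at 10.7%, in the pairs that fell by 200 bp or more.

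Within the narrower pairs, 201 (39.5%) had 1 AP-1 motif in this window and 35 (6.88%, Wilson interval 4.99% to 9.41%) had 2 or more, against 4.67% with 2 or more among wider pairs. The latter difference, 2.21 percentage points, had an interval that included 0 (-0.0805 to 4.95). The bases next to the motif were similar. With the flanking base on each side counted, CTGAGTCAC or its complement was the most frequent form in narrower pairs, at 56 of 280 motifs (20%), and made up 72 of 481 (15%) in wider pairs, a difference of 5.03 percentage points (-0.464 to 10.9). For GTGACTCAC the shares were 12.1% and 8.94%, a difference of 3.20 (-1.20 to 8.09).

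The motifs lay in what was kept rather than in what was lost. Over the 509 pairs, the kept part held 366 AP-1 motifs in 192 kb, or 1.90 per kb (exact Poisson interval 1.71 to 2.11), and the lost flanks 39 motifs in 62.9 kb, or 0.621 per kb (0.441 to 0.848). The ratio of lost flank to kept part was 0.326 (exact binomial interval 0.228 to 0.454). Motifs lie near the centre of p300/CBP peaks in general, and edges gained in wider pairs were also poorer than their shared parts, at 0.307 per kb (0.237 to 0.391) against 1.32 (1.22 to 1.42). Flanks lost in narrower pairs held 2.02 times the density of flanks gained in wider pairs (1.32 to 3.05). Kept parts held 1.44 times the density of the shared parts of wider pairs (1.27 to 1.64). The flanks were not matched for length, as the mean change was -108 bp in narrower and 156 bp in wider pairs. Density fell with distance from the centre, and the ratio of the flanks was not adjusted for this. Windows 2 kb away held 0.167 per kb (0.116 to 0.233). By pair, 266 narrower pairs (52.3%) had AP-1 motifs in the kept part only, 19 (3.73%) in the lost flank only, 17 in both and 207 (40.7%) in neither.

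**Figure D3:**
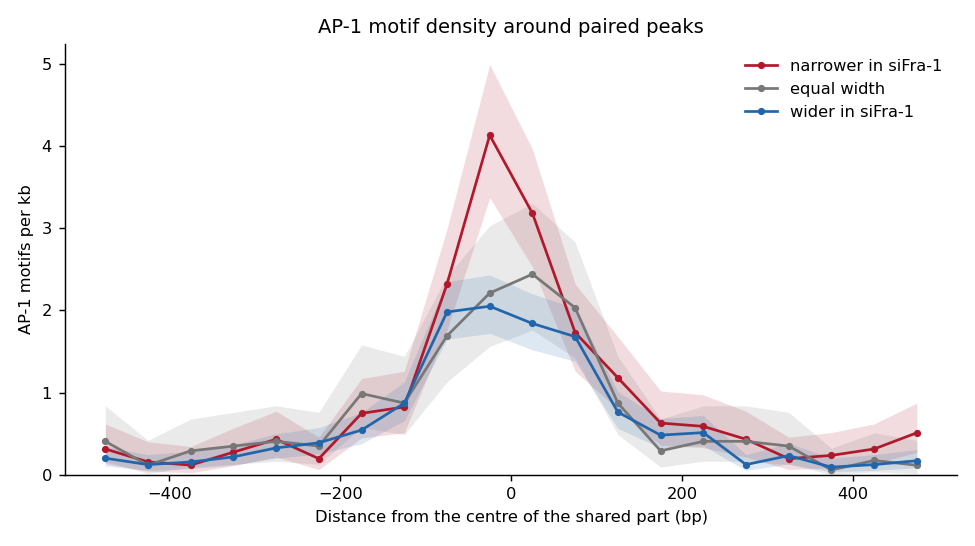
AP-1 motifs per kb (vertical) in 50 bp steps of distance (bp, horizontal) from the centre of the shared part, with shaded 95% exact Poisson intervals. In the narrower pairs (red) the density reached 4.13 per kb in the 50 bp before the centre and 3.18 in the 50 bp after it, against 2.05 and 1.84 in the wider pairs (blue), and all curves were below 1 per kb from 150 bp outwards.

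AP-1 was 1 of 12 motifs searched, each as a consensus word on both strands. For 9 of them the 95% interval of the difference between narrower and wider pairs included 0. AP-1 was the only one whose interval, widened for 12 motifs, still left out 0 (6.94 to 21.5). The TEAD motif (CATTCCA or CATTCCT) was less frequent in narrower pairs, at 118 (23.2%, Wilson interval 19.7% to 27.0%) against 28.9% of wider pairs, a difference of -5.74 percentage points (95% interval -10.0 to -1.19, widened -11.9 to 0.985). It was present in 9 of the 84 pairs that fell by 200 bp or more (10.7%, Wilson interval 5.74% to 19.1%). The forkhead (FOX) word TGTTTAC was found in 5.11% of narrower and 8.40% of wider pairs, a difference of -3.29 (-5.58 to -0.625, widened -6.58 to 0.789). RUNX words, TGTGGTT or TGCGGTT, were found in 13% and 15.6%, a difference of -2.66 (-6.03 to 1.05). Of the other bZIP words, CRE (TGACGTCA), to which some AP-1 and CREB dimers bind, was in 2 narrower pairs, and C/EBP (TTGCNNAA) in 12% of narrower and 13.4% of wider pairs. Between narrower pairs and pairs of equal width, AP-1 alone of the 12 had an interval that left out 0.

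**Figure D4:**
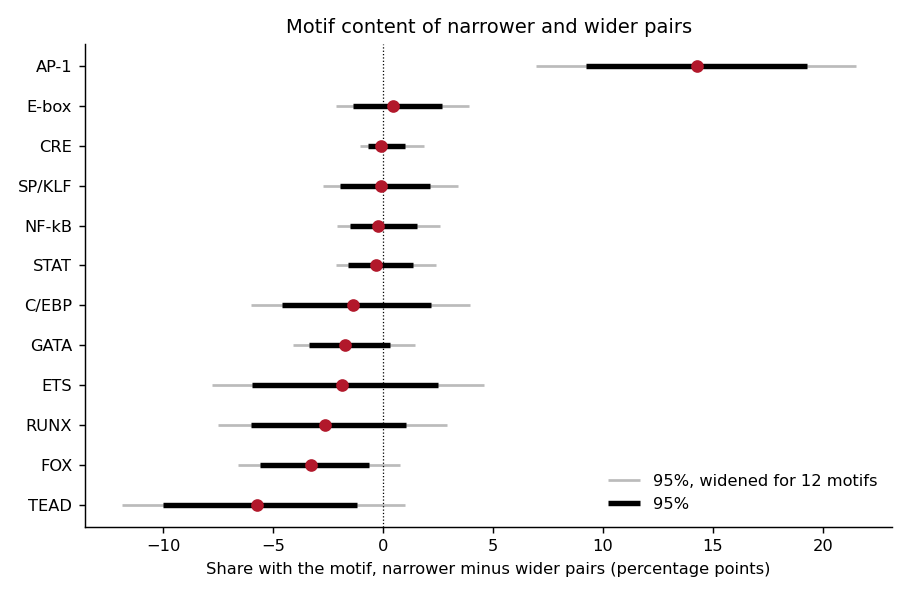
Difference in the share of pairs with each of 12 motifs, narrower minus wider pairs (percentage points, horizontal), with 95% 95% intervals (black) and intervals widened for 12 motifs (grey). AP-1, at 14.3, was the only motif above 0 whose intervals left out 0, and TEAD, at -5.74, lay furthest below 0.

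TEAD words were less frequent in windows that held an AP-1 motif. Among narrower pairs, TEAD words were present in 19.1% of the 236 with an AP-1 motif and in 26.7% of the 273 without, a difference of -7.67 percentage points (95% interval -14.8 to -0.312). The wider pairs had a difference of the same sign, -10.9 (-15.7 to -5.68). The difference between these values was not tested. Pairs within 1 Mb of large assembly gaps, 21 narrower and 66 wider, were included here, and few of them held an AP-1 motif. Away from such gaps it was present in 233 of 488 narrower and 411 of 1220 wider pairs, against 236 of 509 and 413 of 1286 over all. TEAD shares were not computed without the pairs near gaps, so the part of those pairs in the TEAD differences is unknown.

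Narrower pairs lay mostly away from promoters. Windows of 3 kb were placed around the start sites of transcription (TSS) of protein-coding genes, and only 17 narrower pairs touched one (3.34%, Wilson interval 2.10% to 5.28%), compared with 3.81% of wider pairs and 7.27% of pairs of equal width. The difference from wider pairs was within counting error (-0.470 percentage points, 95% interval -2.19 to 1.68), and its sign turned with promoter windows of 1 or 5 kb. Against pairs of equal width it was -3.93 (-7.40 to -0.919). By the centre of the shared part, 286 narrower pairs (56.2%) were in introns, 34 (6.68%) in exons and 189 (37.1%) between genes, and the intergenic share differed from that of wider pairs by 2.29 percentage points (-2.57 to 7.28). The closest TSS of a protein-coding gene was at a median of 46.9 kb. The siCTL peak held an AP-1 motif in 302 of all 509 narrower pairs (59.3%, Wilson interval 55.0% to 63.5%) and in 13 of the 17 at promoters. Among the genes there were VIM, which encodes the intermediate filament protein of mesenchymal cells, PLAU, which encodes urokinase, and CAPN2, which encodes the catalytic subunit of calpain-2.

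GC content in the central 200 bp was 50% ± 8.41 (SD over 509 pairs) in narrower and 48.9% ± 8.70 (SD over 1286 pairs) in wider pairs, a difference of 1.14 percentage points (normal approximation, 0.265 to 2.01). With wider pairs weighted to the siCTL widths of narrower ones it was 0.146 (-0.789 to 1.08), so the GC difference was not detectable between peaks of like siCTL width. Narrower pairs occurred on all 23 chromosomes, from 5 of 33 pairs on chromosome 18 (15.2%) to 26 of 77 on chromosome 7 (33.8%, Wilson interval 24.2% to 44.9%). Chromosome 7 was the only one whose interval left out the share over all pairs.

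Narrower pairs were less frequent next to wider ones. Where the nearest other pair within 50 kb was itself narrower, 61 of 229 pairs were narrower (26.6%, Wilson interval 21.3% to 32.7%), and where it was wider, 117 of 626 (18.7%, 15.8% to 21.9%). The difference was 7.95 percentage points (1.73 to 14.7), but 2.20 (-4.44 to 9.70) for pairs within 20 kb of each other. Both sides of this comparison use the widths that chose the pairs, so it is a description and not a test. A pair and its neighbour can each be counted for the other, so the counts are not independent and the intervals may be too narrow. Next to a pair of equal width 44 of 173 were narrower (25.4%, 19.5% to 32.4%), and without another pair within 50 kb 25.8% of 1111, both close to the share next to a narrower pair. Counting other peaks of any width within 50 kb, a narrower pair had on average 9.73 siCTL and 7.16 siFra-1 peaks around it, a wider pair 10.4 and 8.58, and a pair of equal width 13.4 and 11.7. In the whole lists there were 82901 siCTL and 39320 siFra-1 peaks, so fewer siFra-1 peaks is not particular to the narrower pairs. For peaks of 250 bp and over the order was the opposite, with 1.51 siCTL and 2.08 siFra-1 peaks around a narrower pair and 1.85 and 2.91 around a wider one.

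The 10 largest falls came from siCTL peaks of 600 to 1250 bp, 7 in introns and 3 between genes, and none reached a promoter window. An AP-1 motif was present in the whole kept part of 7 of them and a TEAD word in the central 200 bp of none. These windows differ, and the kept part at chr10:78923752-78924001 held the TEAD word CATTCCA outside the central 200 bp. In the same windows, the shares over all narrower pairs were 55.2% for AP-1 and 23.2% for TEAD, and counts over these 10 falls are given as values only. The largest was at chr10:11835752-11836501, outside genes, with the TSS of PROSER2 29.3 kb away, where 750 bp in siCTL became 250 bp at chr10:11835952-11836201. At chr10:78923502-78924201, in an intron of KCNMA1, which encodes the pore-forming subunit of a calcium-activated potassium channel, 700 bp became 250 bp. Each of these kept 1 AP-1 motif, shown in capitals above.

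A fall of 400 bp occurred at 3 sites. At chr3:11641952-11642701, in an intron of VGLL4, which encodes a cofactor that binds TEAD proteins, a peak of 750 bp became 350 bp and the siFra-1 peak began 150 bp outside the siCTL peak, so 200 bp were shared. The AP-1 motif there was in the lost part. At chr7:130597552-130598751, in an intron of the long non-coding RNAs LINC-PINT and LINC00513, 1200 bp became 800 bp, and again the 1 AP-1 motif was lost from the peak. At chr20:33893152-33894401, in an intron of UQCC1, which encodes an assembly factor of mitochondrial complex III, 1250 bp became 850 bp, with 2 AP-1 motifs kept and 1 lost.

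A fall of 350 bp occurred at 5 sites. The one at chr1:234792802-234793401 lay in an intron of a non-coding gene, 47.3 kb from the TSS of IRF2BP2, which encodes a transcriptional co-repressor, and went from 600 to 250 bp. The one at chr14:23320402-23321001, 15 kb from the TSS of MMP14, which encodes a membrane-bound metalloprotease that activates other proteases at the cell surface, had the same widths. At chr17:78694852-78695501, in an intron of RPTOR, which encodes a subunit of mTORC1, 650 bp became 300 bp, with both an AP-1 and a RUNX word in the central window. At chr10:33654652-33655401, 29.8 kb from the TSS of NRP1, the neuropilin-1 co-receptor of VEGF and semaphorins, 750 bp became 400 bp. These 4 kept 1 AP-1 motif each, whereas the siCTL peak at chr5:172285352-172286401, in an intron of ERGIC1, held none and went from 1050 to 700 bp. The next largest falls with a motif in the kept part were of 300 bp. They lay at chr5:76086352-76086951, 28.1 kb from the TSS of F2RL1, which encodes the protease-activated receptor 2, at chr14:95731702-95732301 in an intron of CLMN, and at chr8:54426552-54427301 in an exon of the long non-coding RNA LINC02984.

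To relate narrowing to genes that respond to Fra-1, pairs were placed within 100 kb of the TSS of genes that the study lists as changed in siFra-1 cells on expression arrays. Only gene names and directions were taken from that list. It was made on other samples of the same cell line, and 535 of its 562 genes were found in the annotation. Its lowered genes include FOSL1, the target of the siRNA, which had 2 narrower pairs. The counts were not repeated without FOSL1. Near genes lowered in siFra-1, 37 of 100 pairs were narrower (37.0%, Wilson interval 28.2% to 46.8%) and 44 were wider. Near genes raised in siFra-1, 15 of 107 were narrower (14.0%, 8.68% to 21.8%) and 85 were wider. The narrower share was higher near lowered genes by 23 percentage points (95% interval 11.2 to 34.1). Near neither group it was 23.6% of 1930 pairs (21.8% to 25.6%), and the 2 pairs near genes of both groups were left out. With 1 pair per 100 kb, so that crowded loci count once, the shares were 27 of 67 and 11 of 83, a difference of 27.0 (12.9 to 40.3).

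The difference was present with and without the exact word TGAGTCA in the central 200 bp. Pairs without it there can hold a looser form, or the word elsewhere in the peak. Over all narrower pairs, the share was 46.4% for that word and window. It was 54.6% for TGANTCA in the same window and 59.3% for TGAGTCA in the whole siCTL peak. With the motif in the central window, 17 of 38 pairs near lowered and 7 of 34 near raised genes were narrower, a difference of 24.1 percentage points (95% interval 2.34 to 42.8). Without it the counts were 20 of 62 and 8 of 73, a difference of 21.3 (7.48 to 34.8). Among siCTL peaks of 400 bp and over it was 27.1 (10.9 to 41.3). These 3 subsets were chosen after the data had been seen. The gene whose TSS lies within 100 kb need not be the one a p300/CBP site acts on.

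The largest falls near lowered genes lay near MMP14, CDCP1, ASB1 and HYI. The pair near MMP14 was also within 100 kb of LRP10, a gene raised in siFra-1, and was therefore left out of the counts above. EGFR, which encodes the epidermal growth factor receptor, had 2 narrower pairs, at chr7:55063652-55064101, 22.8 kb from its TSS, where 450 bp became 250 bp, and at chr7:55133402-55133801 in an intron, where 400 bp became 250 bp, each with 1 AP-1 motif. The 1 other pair near EGFR was wider. FOSL1, which encodes Fra-1 itself, had 5 pairs within 100 kb, of which 2 were narrower, 2 equal and 1 wider. Its narrower peaks went from 700 to 500 bp at chr11:65676952-65677651 and from 800 to 700 bp at chr11:65670352-65671151. The latter lay 2.71 kb from the TSS. Neither siCTL peak held the exact word TGAGTCA on either strand, and looser forms are not given here for single peaks. Absence of that word does not show absence of Fra-1. The study reports candidate active enhancers bound by Fra-1 upstream of the FOSL1 TSS. Whether they coincide with these peaks was not tested.

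**Figure D5:**
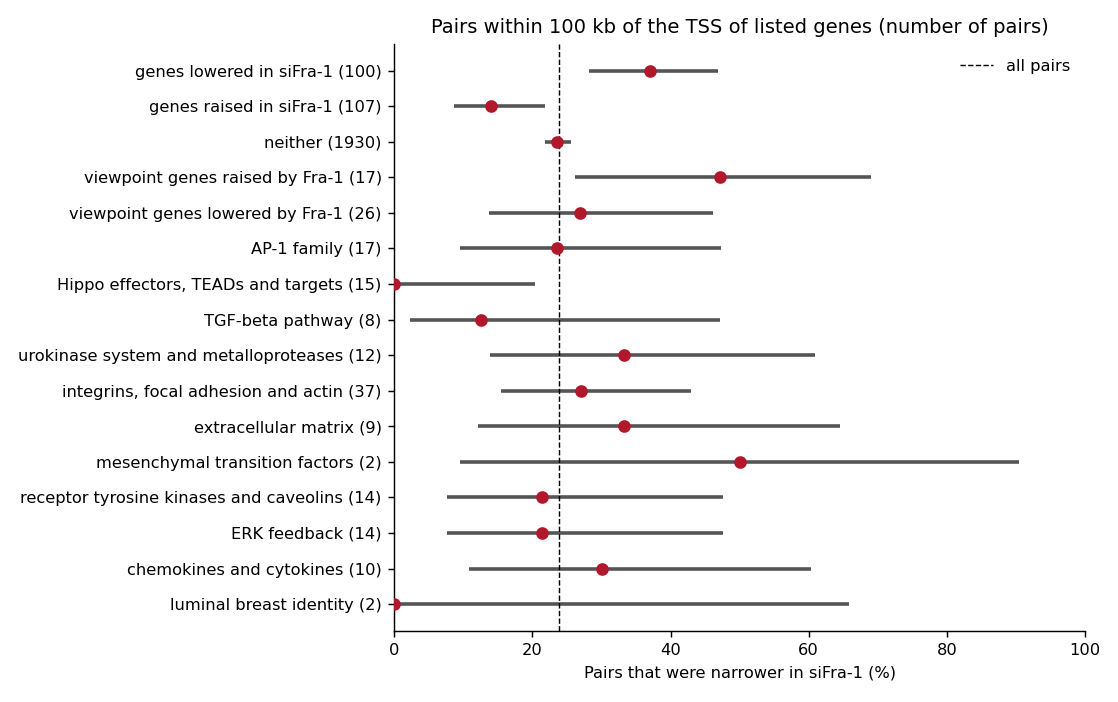
Share of pairs that were narrower in siFra-1 (%, horizontal) among those within 100 kb of the TSS of genes in each list, with 95% Wilson intervals, the number of pairs in parentheses and a dashed line at 23.8%, the share over all pairs. Genes lowered in siFra-1, at 37.0%, lie above the line and genes raised in siFra-1, at 14.0%, below it, while most of the smaller lists have intervals that include it.

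Over 14 smaller lists of genes, 13 had at least 1 pair within 100 kb and 11 had a narrower one. The share over all pairs, 23.8%, lay within the Wilson interval of all but 2 of the 13 lists with pairs. The 16 viewpoint genes that the study lists as raised by Fra-1 had 8 narrower of 17 pairs (47.1%, 26.2% to 69%). The 18 that it lists as lowered by Fra-1 had 7 of 26 (26.9%, 13.7% to 46.1%). FOSL1, CDCP1, ASB1, ZNF114 and RPSAP52, of the former, are also in the list of genes lowered in siFra-1 above. Of the viewpoint genes raised by Fra-1 with a narrower pair, only EMP1 is not, so that share is not separate from the result above. The largest fall near viewpoint genes raised by Fra-1 was at chr3:45106352-45106951, from 600 to 350 bp. It lay 81.3 kb from the TSS of CDCP1, which encodes a transmembrane substrate of Src kinases. Genes of the Hippo effectors, the TEADs and their targets had 0 narrower of 15 pairs, which allows a share of up to 20%, with 13 wider and 2 equal.

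Among factors of the AP-1 family, 4 of 17 pairs were narrower, led by a fall from 500 to 300 bp at chr19:45927452-45927951, 43.6 kb from the TSS of FOSB. Near JUN, which encodes a dimer partner of Fra-1, 1 of 4 pairs was narrower, from 800 to 700 bp. Genes of integrins, focal adhesions and the actin cytoskeleton had 10 of 37 (27.0%, Wilson interval 15.4% to 43.0%), near 8 genes and led by CAPN2, where the peak at the promoter, chr1:223888752-223889251, held 3 AP-1 motifs and went from 500 to 300 bp. Of these 10, the 2 near VCL are pairs of the neighbouring PLAU locus. For the urokinase system and metalloproteases, 4 of 12 were narrower, namely the one near MMP14 and 3 near PLAU. For the extracellular matrix it was 3 of 9, led by a fall from 650 to 450 bp at chr5:151124552-151125201, 58.3 kb from the TSS of SPARC, a collagen-binding matrix protein. For chemokines and cytokines it was 3 of 10, led by a fall from 800 to 500 bp at chr22:30606302-30607101, 36.1 kb from the TSS of LIF, and followed by single pairs near IL24 and CSF2. The intervals of these shares all included 23.8%.

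The remaining lists held few members. Genes of ERK feedback had 3 of 14 pairs narrower, 1 near DUSP1, which is the pair in ERGIC1 described above, and 2 near DUSP5. Both genes encode phosphatases of the MAP kinase pathway. Receptor tyrosine kinases and caveolins had 3 of 14, those near EGFR and 1 near CAV1. The TGF-beta pathway had 1 of 8, in an intron of SMAD3 at chr15:67417752-67418301, from 550 to 400 bp. Mesenchymal transition factors had 1 of 2, the peak of 750 bp at the VIM promoter, which was 650 bp in siFra-1. Genes of luminal breast identity had 0 of 2, and no pair lay near the RUNX genes.

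No protein-coding gene had more than 3 narrower pairs within 100 kb of its TSS, and the 18 genes that had 3 fell into 4 loci. On chromosome 11, EHD1, which encodes a protein of endosome recycling, is flanked by 7 others of these genes. All 3 pairs there were narrower and lay within EHD1, at chr11:64622252-64622851, from 600 to 550 bp, chr11:64624002-64624551, from 550 to 450 bp, and chr11:64636502-64636951, from 450 to 400 bp, each with 1 AP-1 motif. On chromosome 2, all 3 pairs near BABAM2 and RBKS were narrower, each by 50 bp. On chromosome 10, the PLAU locus had narrower peaks at its promoter (chr10:75668602-75669251, 650 to 600 bp), 9.61 kb away (chr10:75658952-75659601, 650 to 550 bp) and 21.3 kb away (chr10:75647302-75647901, 600 to 550 bp), each with 1 AP-1 motif. A wider pair, from 600 to 750 bp and without the motif, lay between them, and another wider one, from 350 to 400 bp and with 1 AP-1 motif, was 57.2 kb away. On chromosome 20, the locus of ID1, COX4I2, BCL2L1 and TPX2 held 9 pairs, of which 3 were narrower and 6 wider. The 3 narrower ones lay in introns of BCL2L1, which encodes the survival protein Bcl-xL, the largest fall being from 850 to 650 bp at chr20:30283602-30284451, together with 2 wider pairs that both had siCTL peaks of 700 bp. The other 4 wider pairs lay nearer to ID1. An AP-1 motif was present in the siCTL peak of 2 of the 3 narrower and 2 of the 6 wider pairs of the locus. With so few pairs a locus, these counts are given as values only.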

How the data were processed

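The labels describe p300/CBP ChIP-seq of siCTL and siFra-1 cells with 1 library each, plus an input not analysed here. The deposited files list the chromosome, start and end of peaks, and these positions are in base pairs of hg19. The authors aligned reads to hg19 (BWA-backtrack in their methods, Bowtie2 in the submitters' processing notes), processed them with PASHA in 50 bp bins, scaled them, subtracted background and called runs above a threshold of 25 with a maximum gap and minimum run of 50 bp. A further parameter, AThr, of unstated meaning, was 79 for siCTL and 130 for siFra-1. Scaling and a fixed threshold set peak width together with occupancy. Starts were raised by 1 for printing and may be 1 bp off.

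Pairs, motifs and genes (GENCODE release 44 lifted to GRCh37) were handled by purpose-written functions (Python 3.11.15, pandas 2.3.3, numpy 2.4.6, pysam 0.24.0, scipy 1.17.1) after tests on simulated data. The study's gene names were matched to the annotation directly or through RefSeq synonyms. Intervals were Wilson for shares, Newcombe for differences of shares, normal approximation for means and weighted differences, and exact for densities. They cover counting error only, and nearby pairs are not independent. Depth is unknown, so its precision cannot be given. There are no replicates and no p-values. Members, lists and comparisons were chosen with earlier results of these data known. Named pairs were the 10 largest falls (ties by ratio, siCTL width and position), the 3 next with AP-1 in the kept part, the largest fall for each gene list, and the genes with the most narrower pairs. The rule asked for 5 such genes, but 18 tied and are given by locus. The genes leading the list of lowered genes, and EGFR, FOSL1 and JUN, were named after their values were seen. Promoter windows, minimum width, overlap, motif windows, width weighting and gene windows were varied, and pairs near large assembly gaps were left out in 1 setting.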

Additional observations from a re-analysis of the deposited data

How the results depend on the processing

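No paired analysis was possible because each condition is 1 library. Of 71 alternatives over the 9 comparisons, 67 kept the direction and the side of the interval, or, for values without a test, stayed within the interval. The promoter difference between narrower and wider pairs, -0.470 percentage points, turned to 0.200 with changes of at least 100 bp, 0.180 with a 1 kb window and 0.606 with a 5 kb window, each with an interval that included 0. The GC difference of 1.14 fell to 0.146 with wider pairs weighted to siCTL widths. The AP-1 difference between narrower and wider pairs ranged from 12.4 with a minimum width of 200 bp to 19.7 with changes of at least 100 bp. Between narrower pairs and pairs of equal width it ranged from 8.51 (1.48 to 15.4) without pairs near large assembly gaps to 15.2 (7.46 to 22.8) with changes of at least 100 bp. The difference between pairs next to narrower and next to wider pairs, within its interval in all settings, was 2.20 within 20 kb. The difference between genes lowered and raised in siFra-1 ranged from 14.6 at 250 kb to 32.8 at 50 kb. The subsets by AP-1 motif and those of siCTL peaks of 400 bp and over were added after the data were seen. Without heights or read depth, a site just under the threshold cannot be told from one without signal, and changes under 50 bp cannot be seen.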
